A study of Mus musculus with 2 samples.

Results

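The 9 genes described here are the 3 Myb transcription factors (Myb, Mybl1 and Mybl2), 2 subunits of the MuvB complex (Lin9 and Lin54), the forkhead factor Foxm1, and the 3 pocket proteins of the retinoblastoma family (Rb1, Rbl1 and Rbl2). They were chosen by symbol from the 32287 genes of the gene table, and all 9 were found. Their RNA was followed across named cell populations and cell cycle classes of a mouse culture in which ependymal progenitors become multiciliated cells (MCCs).

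The cultures were grown from ventricular walls of newborn mice (P0-P2), expanded in serum, shaken to remove loosely attached cells, and then kept without serum for 2 days, so that progenitors and all stages of differentiation were present together. The 2 single-cell libraries (10x Genomics Single Cell 3′ v3) carry the same treatment and differ by substrain, replicate 1 being C57BL/6N and replicate 2 C57BL/6J. There is no untreated or mutant group, and every comparison below is between populations, or classes of a population, inside both libraries. Replicate and substrain cannot be told apart, and the labels used here do not give the number of animals or cultures in each library. The p-values of the main fits measure only how differences between populations varied between these 2 libraries. That spread was pooled over the populations or classes of a fit, which supply the residual degrees of freedom (12 by population, 18 and 30 by class).

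Multiciliated cells make many centrioles on structures called deuterosomes without dividing, and they switch on part of the cell cycle programme while doing so. In dividing cells, the MuvB core (which includes Lin9 and the DNA-binding subunit Lin54) joins the pocket proteins Rbl1 (p107) or Rbl2 (p130) and E2f4 to form the repressive DREAM complex in quiescence, and later exchanges them for Mybl2 (B-Myb) and then Foxm1 to activate genes of G2 and mitosis. Rb1 restrains the activating E2F factors, and Myb (c-Myb) is a regulator of progenitor cells that is also known to act early in the formation of multiciliated cells in the airway.

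All positions are on mm10 with GENCODE M21 annotation. Myb (ENSMUSG00000019982) lies on the minus strand of chromosome 10 from 21124935 to 21160984. Mybl1 (ENSMUSG00000025912) lies on the minus strand of chromosome 1 from 9667415 to 9700209, and Mybl2 (ENSMUSG00000017861) on the plus strand of chromosome 2 from 163054687 to 163084688. Foxm1 (ENSMUSG00000001517) lies on the plus strand of chromosome 6 from 128362967 to 128376146. Lin9 (ENSMUSG00000058729) lies on the plus strand of chromosome 1 from 180641150 to 180690694, and Lin54 (ENSMUSG00000035310) on the minus strand of chromosome 5 from 100441918 to 100500639. Rb1 (ENSMUSG00000022105) lies on the minus strand of chromosome 14 from 73183673 to 73325822. Rbl1 (ENSMUSG00000027641) lies on the minus strand of chromosome 2 from 157145893 to 157204534, and Rbl2 (ENSMUSG00000031666) on the plus strand of chromosome 8 from 91070057 to 91123844. In that annotation no exon of another gene lies on the same strand as an exon of 8 of the 9 genes; Foxm1 shares exon sequence on its strand with 2 others, Tex52 and Gm44596, so that its counts carry that uncertainty. Genes on the opposite strand overlap exons of Myb, Rb1 and Rbl2.

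Promoter windows in RefSeq (GRCm38.p6, 250 bases before to 50 after a RefSeq start site) were matched for 5 of the 9 genes. Those of Myb, Mybl2 and Rbl1 are printed below, because among the 5 these genes differed most between mid deuterosomal cells and cycling progenitors (log2 4.46, −1.84 and −1.76). They are at chr10:21160935-21161234 (minus strand), chr2:163054385-163054684 (plus strand) and chr2:157204485-157204784 (minus strand). The Mybl2 window ends before the GENCODE start of the gene at 163054687, so its positions count from a start site upstream of that one. Both strands were searched for the E2F-type motifs GGCGGGA and TTCGCGC, the cell cycle homology region (CHR) motifs TTTGAA and TTCGAA, and the CHR-like motif TAGGAAA, and capitals mark the matches.
Myb: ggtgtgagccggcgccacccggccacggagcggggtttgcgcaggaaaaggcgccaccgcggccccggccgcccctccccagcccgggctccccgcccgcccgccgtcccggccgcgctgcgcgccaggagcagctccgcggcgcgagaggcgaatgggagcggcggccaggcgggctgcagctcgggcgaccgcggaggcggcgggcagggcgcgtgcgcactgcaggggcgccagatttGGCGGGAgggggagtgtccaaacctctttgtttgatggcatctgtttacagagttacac
Mybl2: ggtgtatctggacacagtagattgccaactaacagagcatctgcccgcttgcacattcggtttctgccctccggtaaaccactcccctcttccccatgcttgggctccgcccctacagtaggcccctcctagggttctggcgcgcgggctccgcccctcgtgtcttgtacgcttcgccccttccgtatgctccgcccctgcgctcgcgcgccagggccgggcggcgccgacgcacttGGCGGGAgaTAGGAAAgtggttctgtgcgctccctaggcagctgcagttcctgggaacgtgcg
Rbl1: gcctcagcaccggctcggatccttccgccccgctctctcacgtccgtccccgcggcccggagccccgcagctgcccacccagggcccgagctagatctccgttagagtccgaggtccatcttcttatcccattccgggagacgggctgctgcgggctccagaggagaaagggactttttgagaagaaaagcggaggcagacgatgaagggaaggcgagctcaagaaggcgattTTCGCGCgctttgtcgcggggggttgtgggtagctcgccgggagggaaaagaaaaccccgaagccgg
The Myb window holds GGCGGGA, beginning at position −9 from the start site. The Mybl2 window holds GGCGGGA at −13 and TAGGAAA at −4, next to each other without overlap, an arrangement of E2F site and CHR-like element that is known for this gene. The Rbl1 window holds TTCGCGC at −17. Of the 32851 windows of this length that were searched, 11.3% hold GGCGGGA, 1.59% TTCGCGC, 17.9% TTTGAA, 1.56% TTCGAA and 5.23% TAGGAAA. Windows of a chromosome that holds none of the genes described here were left out of that search. A match thus describes the sequence and does not show binding.

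Replicate 1 held 12028 cells and 173510950 UMIs, and replicate 2 held 4373 cells and 70611931 UMIs, with 13 cell barcodes present in both. UMIs were summed per library and population and are given as CPM, the count of a gene per 1000000 UMIs of that sum. A lower CPM can mean fewer cells with the transcript or fewer transcripts per cell, and shares of cells with a UMI, after each cell was thinned to 5000 UMIs, are given beside the main results. Populations and classes are the authors' deposited names, taken here to come from expression in these same cells, so tests compare groups that expression helped to define. All 5 deuterosomal markers were highest in a deuterosomal population, and of 5 MCC markers Foxj1 peaked in mid and Rsph1 in late deuterosomal cells. Of 5 cycling markers, 4 peaked in cycling progenitors in replicate 1 and 1 in replicate 2, where oligodendrocyte precursors (OPCs) were higher.

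Myb was the Myb factor of the deuterosomal stages. It stood at 419 and 486 CPM in early deuterosomal cells (replicate 1, then replicate 2, here and throughout), 466 and 491 CPM in mid deuterosomal cells, 102 and 88.2 CPM in late deuterosomal cells, 60.5 and 82.5 CPM in early MCCs and 72.2 and 84.9 CPM in MCCs. Both libraries were high in the early and mid stages, whose ranges overlapped, and every later stage lay well below them in both. Progenitors held 44.3 and 44.2 CPM in the population called progenitors II, 20.1 and 14.9 CPM in progenitors I and 27.3 and 18.1 CPM in cycling progenitors, so the dividing cells were at the low end of the culture for Myb. Oligodendrocytes, which stand here for cells that should lack the multiciliation programme, had 1.57 and 0 CPM.

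Against progenitors II, early deuterosomal cells held 10.1-fold more Myb (log2 fold change 3.34 ± 0.25 SE, edgeR adjusted p = 1.75e-07). Mid and early deuterosomal cells were not told apart by the test (0.19 ± 0.22, edgeR adjusted p = 0.527). Late deuterosomal cells were 5.28-fold below mid deuterosomal cells (−2.40 ± 0.25, edgeR adjusted p = 1.14e-05). MCCs and late deuterosomal cells did not pass the test against each other (−0.33 ± 0.26, edgeR adjusted p = 0.349), although a fit of those populations alone called Myb lower in MCCs (adjusted p = 0.0019). MCCs stayed above progenitors II, in both libraries with no overlap (0.80 ± 0.25, edgeR adjusted p = 0.0188, against adjusted p = 0.128 in a fit without the replicate block).

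The share of cells with a Myb UMI followed the same course. After thinning it was 73.2 and 76.3% of early, 81.5 and 83.2% of mid and 32.3 and 28.9% of late deuterosomal cells, and 28.5 and 28.4% of MCCs. Cycling progenitors had 8.49 and 6.44%, microglia 8.36 and 2.56%, and oligodendrocytes 1.59 and 0%, so that cycling progenitors were close to microglia in replicate 1 only. Without thinning, 97.3 and 97.2% of mid deuterosomal cells (median depths of 17984 and 20436 UMIs) had a Myb UMI, against 17.1 and 15.9% of cycling progenitors (16952 and 20007 UMIs). The summed level of 5 MCC markers in microglia was 664 and 116 CPM, against 36.2 and 45.3 CPM in oligodendrocytes, and its part in the microglial Myb share was not tested.

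**Figure D1:**
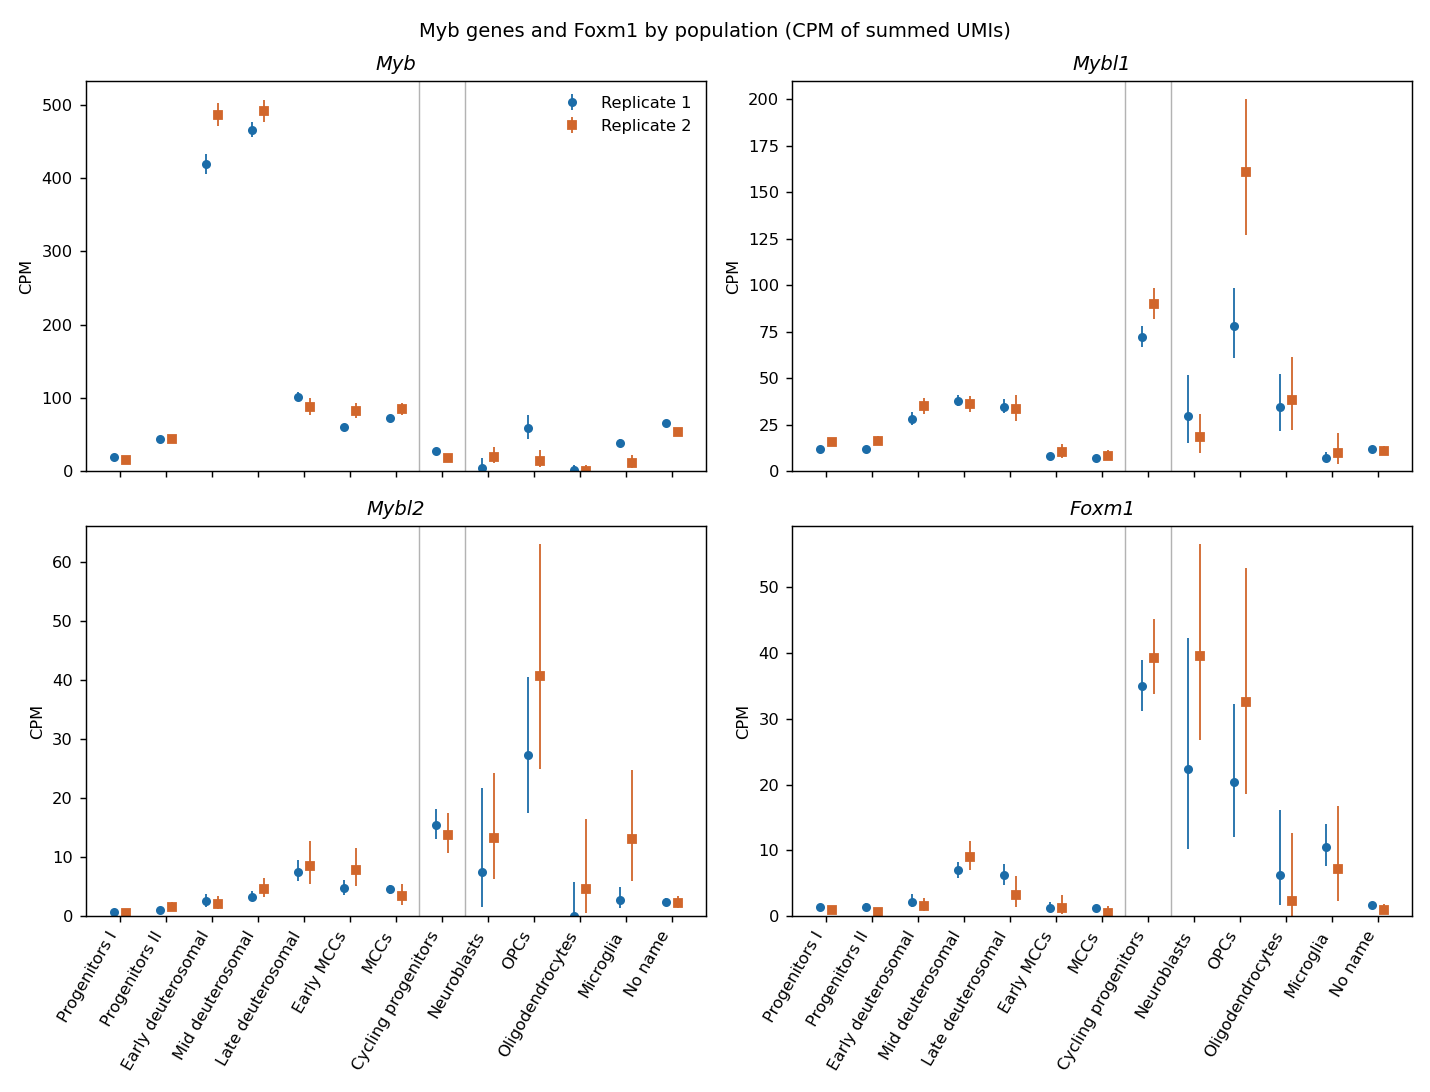
Level of Myb, Mybl1, Mybl2 and Foxm1 in CPM of summed UMIs by population, with circles for replicate 1, squares for replicate 2 and bars for the exact Poisson 95% interval, which covers counting error only; each panel has its own scale. Myb peaks in early and mid deuterosomal cells (419 to 491 CPM), while Mybl1, Mybl2 and Foxm1 are higher in cycling progenitors and OPCs than in any deuterosomal stage.

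Mybl1 (A-Myb), known best as a regulator of meiosis in the male germ line, was highest in OPCs and cycling progenitors. Cycling progenitors had 72.3 and 89.9 CPM, against 12.0 and 15.8 CPM in progenitors I and 11.8 and 16.4 CPM in progenitors II. The deuterosomal stages lay between, at 28.4 and 35.1 CPM early, 38.1 and 36.2 CPM mid and 34.8 and 33.8 CPM late, with ranges that overlapped or nearly met, and MCCs had 7.20 and 8.35 CPM. OPCs were the highest population, at 78.1 and 161 CPM, and their libraries lay far apart. Mybl1 was higher in early deuterosomal cells than in progenitors II (log2 fold change 1.17 ± 0.16, edgeR adjusted p = 2.39e-06) and higher in mid than in early cells (0.37 ± 0.14, edgeR adjusted p = 0.0358, a call that 5 of the alternatives in the closing section did not keep). It fell in MCCs, relative to late deuterosomal cells, by 2.21 ± 0.18 on the log2 scale (edgeR adjusted p = 3.70e-10).

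Mybl2, the B-Myb that completes the activating MuvB complex of dividing cells, was scarce throughout the lineage. Among the deuterosomal and MCC stages its mean without thinning was highest in late deuterosomal cells, whose range overlapped with that of early MCCs. After thinning, early MCCs were above late deuterosomal cells in both libraries, on few UMIs. Without thinning, Mybl2 had 2.49 and 2.05 CPM in early, 3.30 and 4.66 CPM in mid and 7.51 and 8.53 CPM in late deuterosomal cells, then 4.78 and 7.81 CPM in early MCCs and 4.53 and 3.34 CPM in MCCs. Late deuterosomal cells lay above mid deuterosomal cells in both libraries with no overlap. The difference was 0.97 ± 0.32 on the log2 scale (edgeR adjusted p = 0.0290), but the call was lost without the replicate block (adjusted p = 0.173), with thinned cells (adjusted p = 0.330) and with DESeq2 (adjusted p = 0.0743). Cycling progenitors had 15.5 and 13.8 CPM, above every deuterosomal value, and progenitors I had 0.751 and 0.616 CPM. Even in cycling progenitors only 5.79 and 5.58% of thinned cells had a Mybl2 UMI (22.1 and 23% unthinned), against 1.14 and 2.60% of mid and 2.97 and 3.51% of late deuterosomal cells and 1.69 and 1.53% of MCCs.

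Put together as shares of the UMIs of the 3 Myb genes, the balance turned over between dividing and multiciliating cells. UMIs are counted at 3′ ends, so transcript length does not enter these shares. Myb made up 93.1 and 92.9% of the 3 genes' UMIs in early and 91.8 and 92.3% in mid deuterosomal cells, 70.6 and 67.6% in late deuterosomal cells, 82.5 and 81.7% in early MCCs and 86.0 and 87.9% in MCCs. In cycling progenitors Myb made up 23.7 and 14.8% (exact Clopper-Pearson 95% intervals 21.2 to 26.4% and 12.1 to 18.0%), Mybl1 62.8 and 73.9% and Mybl2 13.5 and 11.3%. The non-cycling progenitors sat between, with Myb at 77.5 and 71.1% in progenitors II and 61.2 and 47.5% in progenitors I. Mybl2 contributed 0.554 and 0.392% in early and 0.651 and 0.876% in mid deuterosomal cells, but 5.21 and 6.54% in late deuterosomal cells and 5.40 and 3.46% in MCCs. No test was made on these shares.

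**Figure D2:**
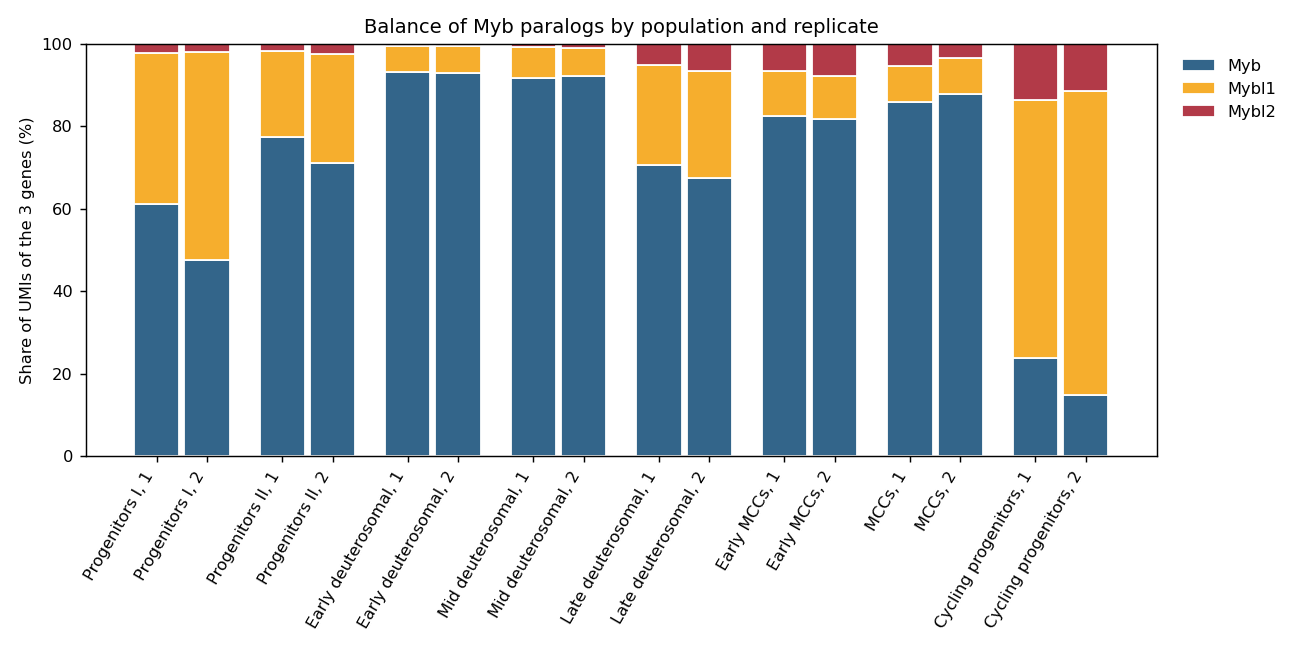
Share of Myb, Mybl1 and Mybl2 in the summed UMIs of the 3 genes, in percent, for 8 populations, with a stacked bar for each replicate. Myb takes 91.8 to 93.1% in early and mid deuterosomal cells, and 23.7 and 14.8% in cycling progenitors, where Mybl1 takes most.

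Foxm1, the forkhead activator of G2 and mitotic genes, was present in mid and late deuterosomal cells at a low level. It had 2.17 and 1.5 CPM in early, 6.95 and 9.06 CPM in mid and 6.19 and 3.20 CPM in late deuterosomal cells, then 1.26 and 1.25 CPM in early MCCs and 1.17 and 0.417 CPM in MCCs. Mid deuterosomal cells lay above early ones in both libraries, and above late ones with no overlap. Foxm1 rose in mid relative to early deuterosomal cells by 2.14 ± 0.32 on the log2 scale, a 4.40-fold difference (edgeR adjusted p = 5.89e-06). The step between late and mid cells did not pass (−0.58 ± 0.28, edgeR adjusted p = 0.142). Foxm1 was 5.20-fold lower in MCCs than in late deuterosomal cells (−2.38 ± 0.38, edgeR adjusted p = 1.44e-05), which did not pass with thinned cells (−1.27, adjusted p = 0.182).

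Cycling progenitors held the highest Foxm1, at 34.9 and 39.2 CPM, against 1.32 and 0.952 CPM in progenitors I and 1.37 and 0.566 CPM in progenitors II. The difference from the non-cycling progenitors was 30.9-fold (4.95 ± 0.19, edgeR adjusted p = 3.61e-17). Neuroblasts, at 22.3 and 39.6 CPM, and OPCs, at 20.4 and 32.6 CPM, overlapped with cycling progenitors, and the sum of 5 cycling markers was also high there (1660 and 2620 CPM in neuroblasts, 1740 and 3680 CPM in OPCs, 2190 and 2650 CPM in cycling progenitors). After thinning, 14.1 and 16.7% of cycling progenitors had a Foxm1 UMI, against 2.74 and 4.34% of mid deuterosomal cells and 0.596 and 0.383% of MCCs.

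Taken as the share of Mybl2 in the UMIs of both activators, Mybl2 and Foxm1, early deuterosomal cells had 53.5 and 57.7% (on few UMIs of either gene), mid deuterosomal cells 32.2 and 34.0%, and late deuterosomal cells 54.8 and 72.7%. The share was 79.2 and 86.2% in early MCCs, and 79.4 and 88.9% in MCCs. Cycling progenitors had 30.7 and 26.0%. The share was larger in late than in mid deuterosomal cells and larger again in early MCCs, in both libraries. Early MCCs and MCCs were nearly level and rest on few Foxm1 UMIs in replicate 2 (4 and 2). With thinned cells MCCs (mean 77.0%) were below early MCCs (87.8%). Without thinning, the CPM of both genes stayed below cycling progenitors at every stage. After thinning, Foxm1 still did, but Mybl2 in early MCCs of replicate 2 was above cycling progenitors of both libraries, on few UMIs.

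Lin9 and Lin54, the MuvB subunits, were higher in both cycling progenitors and deuterosomal cells than in progenitors II and MCCs. Lin9 had 19.7 and 20.5 CPM in early, 25.5 and 24.7 CPM in mid and 15.9 and 15.3 CPM in late deuterosomal cells and 5.01 and 4.59 CPM in MCCs, against 26.3 and 28.5 CPM in cycling progenitors and 7.57 and 7.36 CPM in progenitors II. Lin54 had 17.9 and 20.1 CPM in early, 23.6 and 28.1 CPM in mid and 20.4 and 18.1 CPM in late deuterosomal cells and 8.08 and 9.60 CPM in MCCs, against 33.0 and 37.6 CPM in cycling progenitors and 9.14 and 10.5 CPM in progenitors II. The libraries differed little at each stage, and for both genes all deuterosomal values lay above all progenitor II and MCC values. Both genes were higher in early deuterosomal cells than in progenitors II (Lin9 1.40, edgeR adjusted p = 2.84e-07; Lin54 0.94, edgeR adjusted p = 2.23e-05) and lower in MCCs than in late deuterosomal cells (Lin9 −1.69, Lin54 −1.25). Between mid deuterosomal cells and cycling progenitors Lin9 gave no difference that passed (−0.00 on the log2 scale), whereas Lin54 was slightly lower (−0.35, edgeR adjusted p = 0.0201, lost without the replicate block and with thinned cells). Late deuterosomal cells were below cycling progenitors for Lin9 (−0.75 ± 0.17, edgeR adjusted p = 0.000528) and for Lin54 (−0.78 ± 0.15, edgeR adjusted p = 7.1e-05, but adjusted p = 0.0846 with thinned cells).

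The pocket proteins split. Rbl1 (p107), itself an E2F target in dividing cells, had 9.32 and 12.0 CPM in early, 10.4 and 11.6 CPM in mid and 8.83 and 8.53 CPM in late deuterosomal cells and 4.40 and 6.26 CPM in MCCs, against 38.1 and 43.1 CPM in cycling progenitors. Every deuterosomal value lay below the cycling ones, and the mid stage was lower by 1.76 ± 0.15 on the log2 scale (edgeR adjusted p = 2.38e-10). Rbl2 (p130), the pocket protein of quiescent cells, had 28.7 and 32.1 CPM in early, 29.7 and 23.9 CPM in mid and 25.0 and 27.4 CPM in late deuterosomal cells and 20.3 and 15.9 CPM in MCCs, against 24.6 and 18.9 CPM in cycling progenitors and 36.4 and 31.7 CPM in progenitors II. Mid deuterosomal cells and cycling progenitors overlapped, and the small difference that passed (0.40 on the log2 scale, edgeR adjusted p = 0.0239) was lost under 4 alternatives. Rbl2 was lower in MCCs than in late deuterosomal cells (−0.46, edgeR adjusted p = 0.0248, with adjusted p from 0.0525 to 0.121 under 4 alternatives that lost the call) and lower in cycling than in non-cycling progenitors (−0.59, edgeR adjusted p = 0.000799).

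Rb1 fell along the deuterosomal stages and was higher again in MCCs. It had 47.4 and 58.0 CPM in early, 28.5 and 27.8 CPM in mid and 20.8 and 18.1 CPM in late deuterosomal cells, 34.7 and 40.0 CPM in early MCCs and 42.2 and 43.2 CPM in MCCs. The early, mid and late stages did not overlap. Late deuterosomal cells had the lowest Rb1 among the 13 populations fitted, which leave out fibroblasts. Mid cells were lower than early cells by 0.77 ± 0.11 on the log2 scale (edgeR adjusted p = 1.85e-06), late cells were lower than mid cells (−0.56, edgeR adjusted p = 0.00253, but adjusted p = 0.0909 with thinned cells), and MCCs were 2.08-fold higher than late cells (1.06 ± 0.13, edgeR adjusted p = 2.16e-07). Within the family's UMIs, Rb1 took 55.5 and 56.8% in early deuterosomal cells, 41.6 and 43.9% in mid cells, 38.1 and 33.6% in late cells and 63.0 and 66.1% in MCCs, while in cycling progenitors Rb1 took 36.2 and 38.5% and Rbl1 38.7 and 42.8%.

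**Figure D3:**
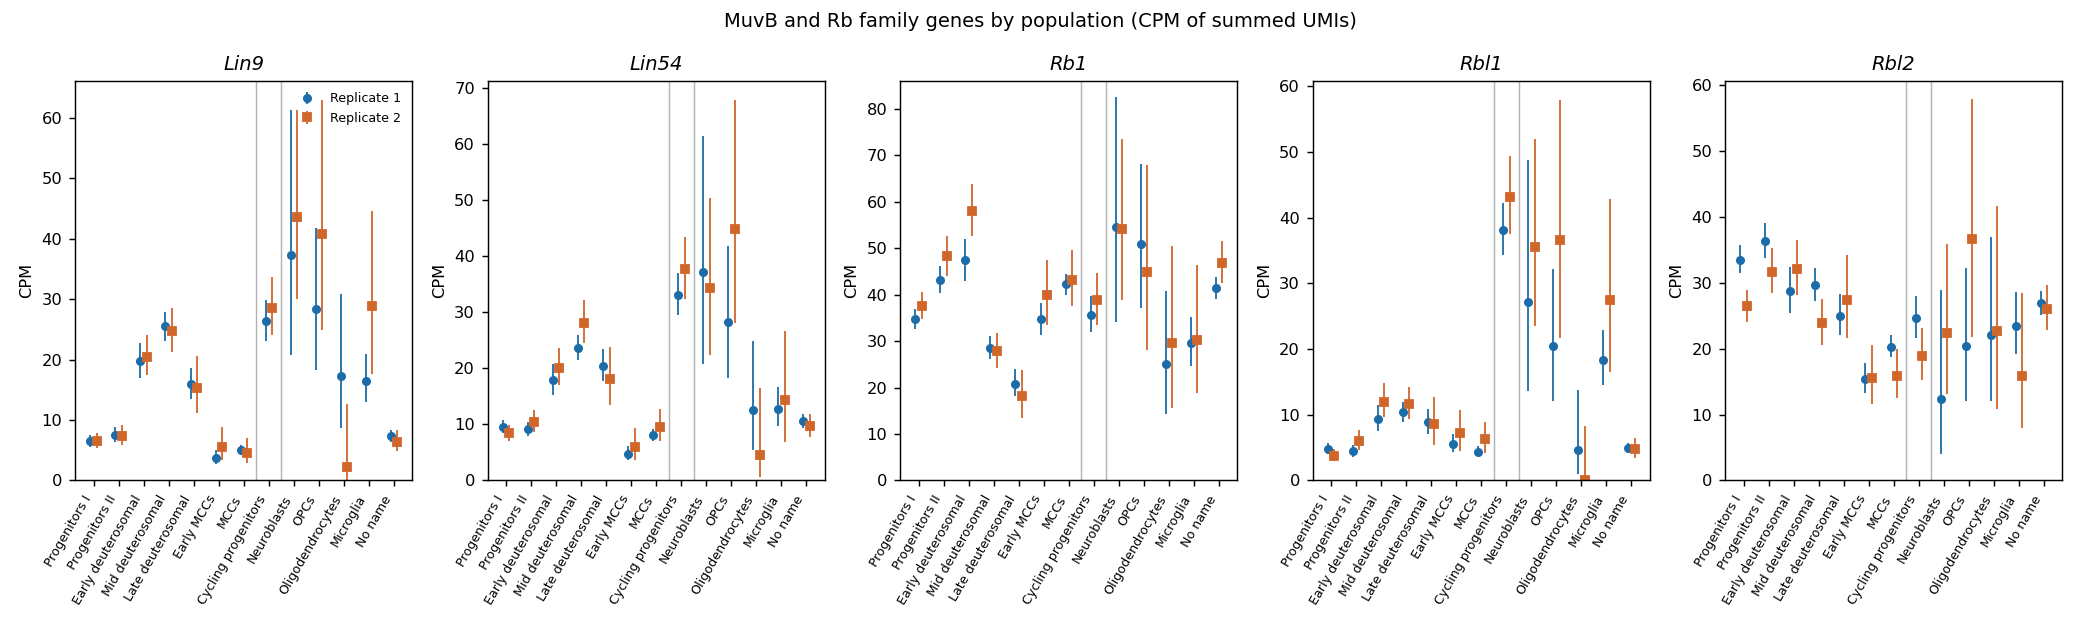
Level of Lin9, Lin54, Rb1, Rbl1 and Rbl2 in CPM of summed UMIs by population, with circles for replicate 1, squares for replicate 2 and bars for the exact Poisson 95% interval. Lin9 and Lin54 are higher in cycling progenitors and in deuterosomal cells than in progenitors II and MCCs, Rbl1 is highest in cycling progenitors (38.1 and 43.1 CPM), and Rb1 is lowest in late deuterosomal cells (20.8 and 18.1 CPM).

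Counted over the 9 genes, early deuterosomal cells against progenitors II gave 5 higher and 0 lower at an adjusted p under 0.05. Of all 15877 genes tested there, 16.9% were higher and 14.5% lower (31.4% in all). With thinned cells the Rbl1 call was lost (edgeR adjusted p = 0.252) and Rbl2 was called lower (−0.42, edgeR adjusted p = 0.039). In a fit of only these populations Mybl2 was also called higher (edgeR adjusted p = 0.0437). Mid against early deuterosomal cells gave 4 higher and 1 lower, where 28.2% of all genes were higher and 20.8% lower (49.0%). Besides Mybl1 (above), Lin9 was lost without the replicate block (edgeR adjusted p = 0.155), without unannotated cells (0.0685) and with DESeq2 (0.0639). Gained as higher were Rbl1 with thinned cells (edgeR adjusted p = 0.0321) and Mybl2 in a fit of only these populations (0.0424). Late against mid gave 1 higher and 4 lower, where 8.61% were higher and 13.2% lower (21.8%). Of the lower calls, Lin54 was lost with thinned cells (edgeR adjusted p = 0.681) and without the replicate block (0.150), among other alternatives, and Lin9 without the block (0.0587). With DESeq2 size factors the split of all called genes turned, with 2023 higher and 1528 lower in place of 1367 and 2095. MCCs against late deuterosomal cells gave 1 higher and 7 lower, where 18.8% were higher and 19.9% lower (38.7%). The median log2 fold change was −0.90 over the 9 genes beside 0.03 over all genes. The lower Mybl2 call was lost without the replicate block (edgeR adjusted p = 0.0943), with thinned cells (0.249) and with DESeq2 (0.114), and that of Rbl1 without the block (0.0511). With DESeq2 size factors the split of all called genes also turned, with 3614 higher and 2792 lower in place of 2978 and 3162.

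MCCs against progenitors II gave 2 higher and 3 lower, where 24.2% of all genes were higher and 22.9% lower (47.0%). Those higher were Myb and Mybl2 (1.82 ± 0.35, edgeR adjusted p = 0.000146), and those lower were Mybl1 (−0.84 ± 0.18, edgeR adjusted p = 0.000422), Lin9 (−0.61 ± 0.19, edgeR adjusted p = 0.0100, lost without the replicate block and with thinned cells) and Rbl2 (−0.88 ± 0.14, edgeR adjusted p = 8.76e-06). Cycling against non-cycling progenitors gave 6 higher and 1 lower, where 17.4% were higher and 21.3% lower (38.6%), with a median of 1.90 beside −0.10. Mid deuterosomal cells against cycling progenitors gave 2 higher and 6 lower, where 34.4% were higher and 28.6% lower (63.0%). The lower Rb1 call there was lost without the filter (edgeR adjusted p = 0.0689), without the replicate block (0.112) and with thinned cells (0.25). Late deuterosomal cells against cycling progenitors gave 1 higher and 7 lower, where 28.1% were higher and 25.0% lower (53.1%). The lower Mybl2 call in late cells was lost without the block (edgeR adjusted p = 0.074), with thinned cells (0.0973) and with DESeq2 (0.101). Leaving unannotated cells out of the fit turned the split of all called genes in both comparisons. For mid deuterosomal cells it gave 4476 higher and 5360 lower in place of 5468 and 4536. For late ones it gave 3855 and 4638 in place of 4457 and 3968. Passing the test is thus common among all genes in these comparisons.

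The authors' classes allow a comparison at matched class. The class S/G2 held 693 and 292 mid deuterosomal cells (78.8 and 82.7% of them), 335 and 92 late deuterosomal cells (76.1 and 73.6%) and 206 and 97 cycling progenitors (39.6 and 40.6%). Within this class, mid deuterosomal cells differed from cycling progenitors in 65.8% of 13634 genes tested (31.7% higher, 34.2% lower), and among the 9 genes 1 was higher, 6 were lower and 2 did not pass. Myb had 453 and 478 CPM in S/G2 mid deuterosomal cells, against 19.6 and 13.7 CPM in S/G2 cycling progenitors. That is a 26.6-fold difference (log2 4.74 ± 0.25, edgeR adjusted p = 2.54e-12), with no overlap. Foxm1 had 8.27 and 10.3 CPM in S/G2 mid deuterosomal cells, against 52.7 and 66.0 CPM in S/G2 cycling progenitors, 6.49-fold lower (−2.70 ± 0.18, edgeR adjusted p = 7.87e-21).

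Mybl1 had 40.7 and 36.9 CPM in S/G2 mid deuterosomal cells, against 88.7 and 116 CPM in S/G2 cycling progenitors (−1.36 ± 0.14, edgeR adjusted p = 3.05e-12). Mybl2 had 3.22 and 4.98 CPM against 10.2 and 7.74 CPM in the same groups (−1.25 ± 0.33, edgeR adjusted p = 0.000747; adjusted p = 0.114 with thinned cells). Rbl1 had 10.4 and 11.3 CPM in S/G2 mid deuterosomal cells, against 45.0 and 54.6 CPM in S/G2 cycling progenitors (log2 −2.18). The groups did not overlap for any of the 3. Lin9, at 26.0 and 25.7 CPM against 24.9 and 31.4 CPM, and Rbl2, at 28.9 and 23.9 CPM against 24.4 and 19.6 CPM, did not pass, and the S/G2 class of cycling progenitors overlapped with mid deuterosomal cells for Lin9 and for Rbl2. Lin54 (−0.61) and Rb1 (−0.39) were lower, but neither passed with thinned cells (adjusted p = 0.183 and 0.743). The Rb1 call was also lost without the filter (edgeR adjusted p = 0.0808), without the replicate block (0.0734) and in a fit of those populations alone (0.0586).

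S/G2 late deuterosomal cells against S/G2 cycling progenitors again gave 1 higher, 6 lower and 2 not passing, where 56.9% of all genes passed (27.6% higher, 29.3% lower). These comparisons share the cycling progenitor libraries. Of the lower calls in late S/G2 cells, those of Lin9, Lin54 and Rb1 were lost with thinned cells (edgeR adjusted p = 0.0577, 0.129 and 0.108). Myb had 106 and 95.2 CPM in late S/G2 cells (log2 2.54 ± 0.28, edgeR adjusted p = 2.63e-07) and Foxm1 7.53 and 4.10 CPM (−3.14 ± 0.22, edgeR adjusted p = 1.27e-19). Mybl2, at 7.53 and 7.29 CPM, did not pass against S/G2 cycling progenitors (−0.31 ± 0.33, edgeR adjusted p = 0.443). At matched class the Myb share of the 3 paralogs was 91.2 and 92.0% in mid and 69.1 and 69.0% in late deuterosomal cells, against 16.5 and 9.90% in cycling progenitors. The Mybl2 share of Mybl2 and Foxm1 was 28.0 and 32.7% in mid and 50 and 64.0% in late deuterosomal cells, against 16.2 and 10.5% in cycling progenitors.

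**Figure D4:**
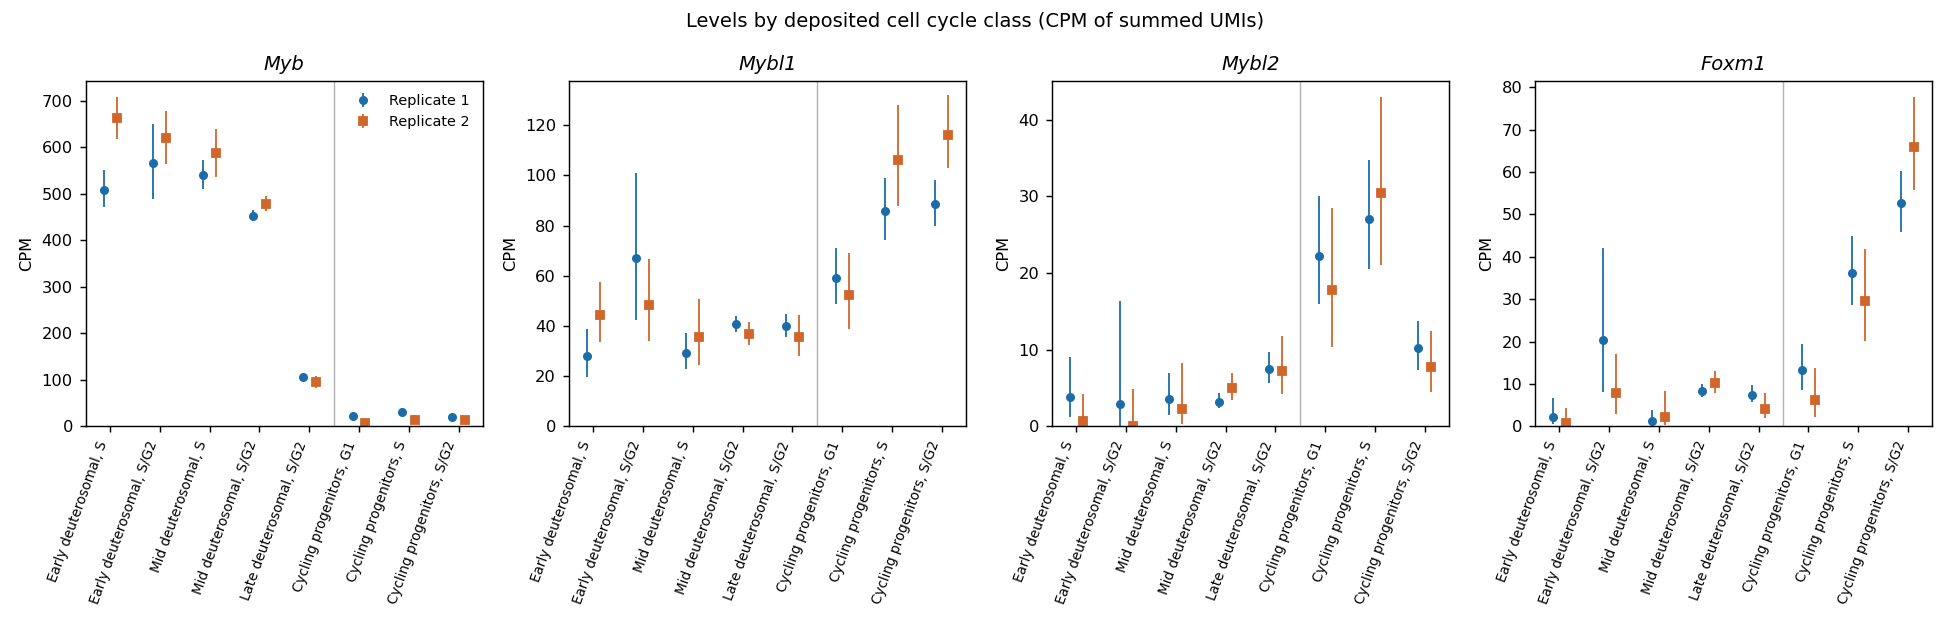
Level of Myb, Mybl1, Mybl2 and Foxm1 in CPM by population and deposited cell cycle class, with circles for replicate 1, squares for replicate 2 and exact Poisson 95% intervals. Foxm1 in cycling progenitors is higher in S/G2 (52.7 and 66.0 CPM) than in S (36.1 and 29.6 CPM), Mybl2 the other way round, and Myb is high in each deuterosomal class drawn for early and mid cells.

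Foxm1 in mid and late deuterosomal cells was found almost wholly in the S/G2 class, which itself held most of these cells. Over both libraries S/G2 held 186 of 192 Foxm1 UMIs in mid cells, with 78.8 and 82.7% of the cells. In late cells it held 66 of 70, with 76.1 and 73.6% of the cells. In mid deuterosomal cells S/G2 held 118 and 68 Foxm1 UMIs, against 3 and 2 UMIs in the S class (8.27 and 10.3 CPM against 1.34 and 2.30 CPM). In late deuterosomal cells S/G2 held 57 and 9 Foxm1 UMIs, and the S class held 0 in either library, from 31 and 4 cells. The 4 cells of replicate 2 are too few for that 0 to be read. In early deuterosomal cells, S/G2 had 20.5 and 7.86 CPM from 7 and 6 UMIs in 22 and 38 cells, and the class G0 had 1.30 and 0.821 CPM from 9 and 4 UMIs in 482 and 311 cells. The mid S/G2 values lay above the mid S values in both libraries, and the early ones rest on few UMIs. Myb did not follow the classes in this way: early deuterosomal cells had 392 and 413 CPM in G0, 509 and 662 CPM in S and 565 and 619 CPM in S/G2, all far above any class of cycling progenitors with 20 or more cells in each library.

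In cycling progenitors Foxm1 was higher and Mybl2 lower in S/G2 than in S. Foxm1 had 52.7 and 66.0 CPM in S/G2, against 36.1 and 29.6 CPM in S (log2 0.80 ± 0.20, edgeR adjusted p = 0.00535), a call lost without the replicate block (adjusted p = 0.196) and with DESeq2 (adjusted p = 0.117). Mybl2 had 10.2 and 7.74 CPM in S/G2, against 27.0 and 30.5 CPM in S (−1.61 ± 0.32, edgeR adjusted p = 0.000141; adjusted p = 0.178 with thinned cells). Neither gene overlapped between the classes. The Mybl2 share of both activators was 62.7 and 73.9% in G1, 42.8 and 50.8% in S and 16.2 and 10.5% in S/G2, larger at each earlier class in both libraries. The other 7 genes did not pass between S/G2 and S, where 9.48% of all genes passed (5.13% higher, 4.34% lower).

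The deposited G2/M class was too thin in cycling progenitors for the 9 genes, with 17 and 8 cells. Over both libraries it held 6 Foxm1 UMIs, 2 Mybl1, 1 Mybl2, 2 Lin9, 1 Lin54, 14 Rb1, 1 Rbl1, 5 Rbl2 and 28 Myb UMIs. Of the Myb UMIs 22 came from the 8 cells of replicate 2 (180 CPM, against 23.9 CPM in replicate 1), so the libraries disagree. The G2/M class of late deuterosomal cells, with 52 and 21 cells, had 71 and 19 Myb UMIs (69.3 and 58.8 CPM), 15 Mybl2 UMIs over both libraries and 1 Foxm1 UMI. Against the S class of cycling progenitors, the G2/M class had 0 of the 9 genes higher and 5 lower (of 12563 genes 6.23% passed, 1.79% higher and 4.44% lower). Of the 5 lower calls, 4 were lost with thinned cells (Mybl2 adjusted p = 0.274, Lin9 0.354, Lin54 0.258 and Rbl1 0.0723) and 3 with DESeq2 (Mybl2 adjusted p = 0.116, Lin9 0.059 and Rbl1 0.0581). Myb was called higher in a fit of only these populations (adjusted p = 0.00369) and with DESeq2 (adjusted p = 0.0345). Of the 32 G2/M genes described next, 3 were higher and 16 lower in G2/M than in S, which goes against the class's name. G2/M late deuterosomal cells against G2/M cycling progenitors gave 0 higher and 1 lower (of all genes 16.2% passed, 9.23% higher and 6.96% lower), the 1 being Foxm1, which rests on 1 UMI against 6 and was lost with thinned cells (adjusted p = 0.228).

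Genes known as targets of Mybl2, MuvB and Foxm1 in dividing cells were examined as a list of 32. In early deuterosomal cells against progenitors II, 31 were higher and 0 lower, where 16.9% of all genes were higher and 14.5% lower. The median log2 fold change was 3.13 beside −0.04 over all genes. In mid against early deuterosomal cells, 30 were higher and 0 lower (2.10 beside 0.08), where 28.2% of all genes were higher and 20.8% lower, and Foxm1 was higher there too. In late against mid deuterosomal cells 9 were higher and 6 lower (0.17 beside −0.01), where 8.61% of all genes were higher and 13.2% lower. In MCCs against late deuterosomal cells 0 were higher and 32 lower (−5.17 beside 0.03), where 18.8% were higher and 19.9% lower. Among dividing cells, all 32 were higher in cycling than in non-cycling progenitors (6.33 beside −0.10), where 17.4% of all genes were higher. In S/G2 against S cycling progenitors 31 were higher and 0 lower (1.85 beside 0.01), where 5.13% were higher and 4.34% lower. Ube2c, an E2 enzyme of the anaphase-promoting complex, had 155 and 124 CPM in mid, against 14.6 and 11.8 CPM in early deuterosomal cells (3.51 on the log2 scale). Cdc20, the mitotic activator of that complex, had 298 and 307 CPM in mid, against 65.9 and 84.6 CPM in early cells (2.12).

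At matched class, where 31.7% of all genes were higher and 34.2% lower in S/G2 mid deuterosomal cells, 1 of the 32 was higher in S/G2 mid deuterosomal cells and 30 were lower than in S/G2 cycling progenitors (median −1.83 beside −0.05 over all genes). The 1 was Nek2, a centrosomal kinase that separates centrosomes, with 137 and 163 CPM in S/G2 mid deuterosomal cells against 86.3 and 98.3 CPM in S/G2 cycling progenitors (0.69 ± 0.11, edgeR adjusted p = 1.63e-07). The lowest was Ccna2, cyclin A2, with 9.25 and 10.6 CPM in S/G2 mid deuterosomal cells against 309 and 369 CPM in S/G2 cycling progenitors (−5.10 ± 0.13, edgeR adjusted p = 2.53e-41). Mki67, the proliferation antigen Ki-67, had 27.1 and 46.2 CPM against 928 and 1300 CPM in the same groups, and Cdc25b, a phosphatase that activates Cdk1, 2.17 and 1.66 CPM against 33.4 and 33.2 CPM. No group overlapped for any of these genes. In S/G2 late deuterosomal cells 0 were higher and 29 lower (median −1.49), where 27.6% of all genes were higher and 29.3% lower.

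Among 8 further partners of MuvB and DREAM, 1 was higher and 6 were lower in S/G2 mid deuterosomal cells than in S/G2 cycling progenitors (median −0.67). Here and for the lists below, the median over all genes was −0.05, and 31.7% of all genes were higher and 34.2% lower. The higher one was E2f4, the E2F of the DREAM complex, which is also known to act with multicilin in multiciliated cells, with 31.0 and 29.0 CPM in S/G2 mid deuterosomal cells against 19.6 and 17.3 CPM in S/G2 cycling progenitors (0.69 ± 0.17, edgeR adjusted p = 0.000328). Tfdp1, the DNA-binding partner of E2F proteins, had 38.2 and 39.9 CPM against 105 and 104 CPM (−1.43 ± 0.12, edgeR adjusted p = 8.57e-17). E2f5, also a partner of multicilin, had 40.0 and 40.3 CPM against 69.1 and 74.6 CPM (−0.84), and Rbbp4, the histone-binding MuvB subunit, 156 and 137 CPM against 277 and 269 CPM (−0.91).

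The other E2F genes, 6 in all, gave 1 higher and 5 lower (median −1.99). E2f7, an E2F repressor, was the higher one, with 56.2 and 65.4 CPM in S/G2 mid deuterosomal cells against 22.5 and 24.1 CPM in S/G2 cycling progenitors (1.36 ± 0.16, edgeR adjusted p = 4.78e-11). Its relative E2f8 went the other way, with 10.4 and 13.3 CPM against 56.3 and 68.3 CPM (−2.41), and the activator E2f3 had 0.841 and 0.906 CPM against 12.3 and 17.7 CPM (−4.02). S/G2 late deuterosomal cells had 11.5 and 11.8 CPM of E2f7 and were below S/G2 cycling progenitors (−0.97).

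Genes of DNA replication that E2F proteins are known to control at the start of S phase, 23 in all, gave 0 higher and 21 lower (median −3.27), with Mcm5, a subunit of the replicative helicase, at 0.701 and 0.302 CPM in S/G2 mid deuterosomal cells against 48.3 and 65.5 CPM in S/G2 cycling progenitors. Of 13 kinase and inhibitor genes that act on the pocket proteins, 1 was higher and 11 lower (median −2.12). Ccnd1, cyclin D1, which with its kinase phosphorylates Rb1, had 3.58 and 1.36 CPM in S/G2 mid deuterosomal cells against 113 and 120 CPM in S/G2 cycling progenitors. Cdkn1a, the inhibitor p21, was the higher one, with 335 and 209 CPM against 181 and 146 CPM (0.72, edgeR adjusted p = 0.00538). Of 4 checkpoint and activation partners of Foxm1, 0 were higher and 4 lower (median −3.02).

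Of 8 regulators of multiciliation, 7 were higher and 1 lower in the same comparison (median 3.09). Mcidas, which encodes multicilin, had 132 and 135 CPM in S/G2 mid deuterosomal cells against 2.42 and 0.910 CPM in S/G2 cycling progenitors (6.13). Ccno, a cyclin of deuterosome formation, had 317 and 359 CPM against 9.19 and 8.19 CPM (5.21). The lower one was Gmnc, which encodes GemC1 and acts at the start of the programme, with 9.11 and 5.44 CPM against 14.5 and 15.5 CPM (−0.94).

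**Figure D5:**
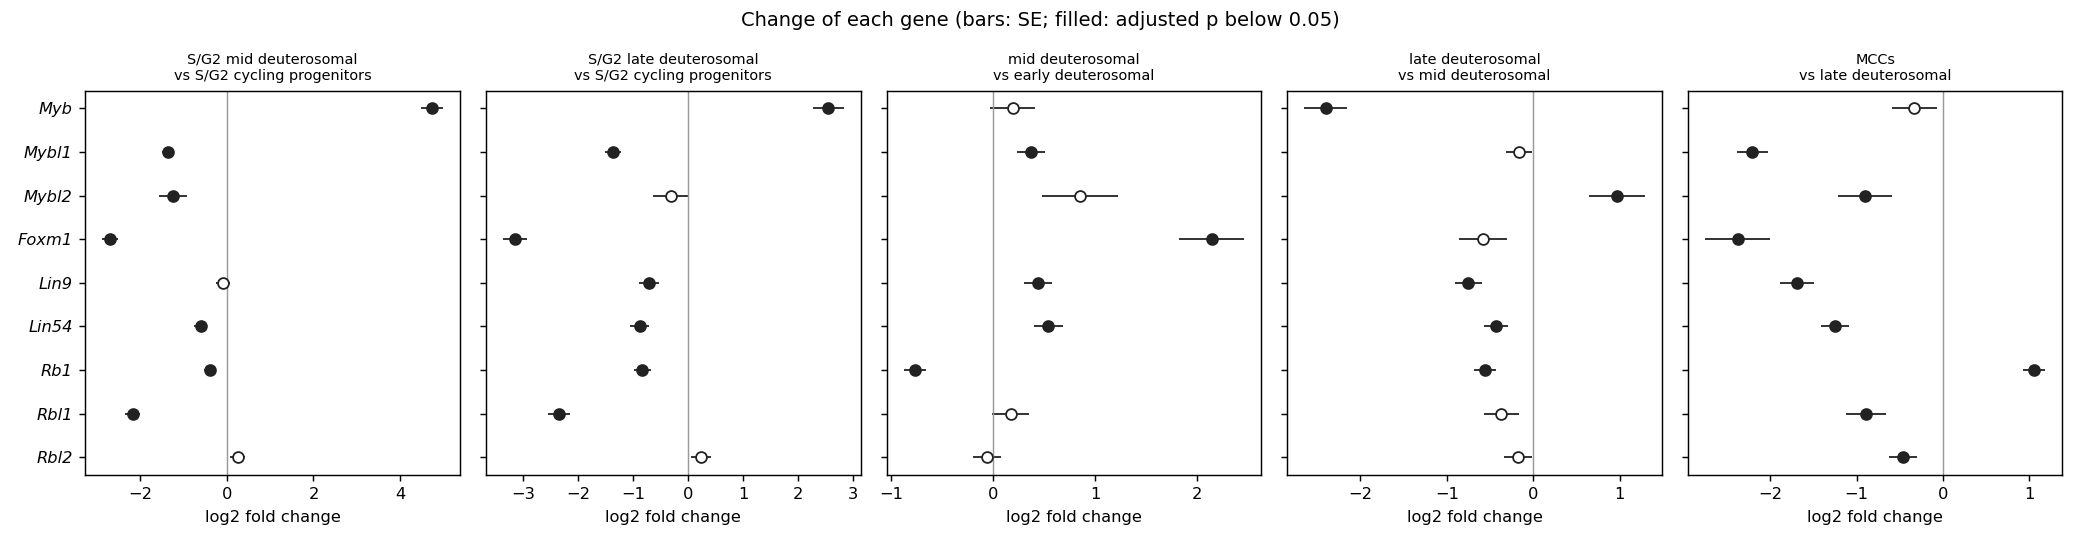
Log2 fold change of the 9 genes with its standard error in 5 comparisons, each panel with its own scale and the first-named group over the second; filled points passed an adjusted p of 0.05 over all genes tested by edgeR. Myb alone is higher at matched class in mid and late deuterosomal cells, and Rb1 alone is higher in MCCs than in late deuterosomal cells.

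Across the 13 populations, the genes whose mean level ran most like each member's were found by Pearson's r of log2(mean CPM + 1), which is a description over populations that share libraries. For Myb they were Csrp2 (r = 0.949), Mtmr9 (0.933), Odf2l (0.930), Tchp (0.929) and Irf3 (0.917). For Foxm1 the nearest were Mxd3 (0.987), Shcbp1 (0.987) and Ska1 (0.984), for Mybl2 Timm50 (0.924), Rad18 (0.921) and Kif11 (0.915), and for Mybl1 Mrps11 (0.944). For the MuvB genes they were Nup155 (0.977) for Lin9 and Cenpl (0.974) and Cenpc1 (0.973) for Lin54. For the pocket genes they were Gmnn (0.972) for Rbl1, Peli2 (0.851) for Rb1 and Ahcyl2 (0.838) for Rbl2. Among the members themselves, Lin9 and Lin54 ran together (r = 0.935), as did Foxm1 with Lin9 (0.890), Rbl1 (0.868) and Mybl2 (0.806), whereas Myb ran with neither Foxm1 (−0.238) nor Mybl1 (−0.0494).

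Within single cells thinned to 5000 UMIs, Myb and Foxm1 were seen together in 20 and 10 mid deuterosomal cells. Foxm1 had a UMI in 2.81 and 3.47% of mid deuterosomal cells with a Myb UMI, against 2.47 and 8.62% of those without, so the libraries differ in direction. Mybl2 and Foxm1 were seen together in 8 and 3 cycling progenitors and in 0 and 0 mid deuterosomal cells. Of 875 and 346 mid deuterosomal cells only 10 and 9 had a Mybl2 UMI, and 24 and 15 a Foxm1 UMI. These are too few for the 0 to be read either way. In cycling progenitors Foxm1 had a UMI in 26.7 and 23.1% of cells with a Mybl2 UMI, against 13.3 and 16.4% of those without, resting on the 8 and 3 cells with both.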

How the data were processed

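Single-cell RNA was measured in 2 libraries of differentiating mouse ependymal cultures. The deposited matrix holds whole UMI counts per gene and cell, with the authors' population and cell cycle class names. Per the submitters' processing notes, Cell Ranger 3 and 5.0.1 and mm10 were used; the role of each version, the filters on cells and the treatment of doublets are not given in the sources used here, and no doublet caller was run.

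Counts were summed per library and population (26 sums of 13 populations, each with at least 20 cells in each library; 15877 genes) or per library, population and class (38 sums, 13634 genes), and fitted with edgeR 4.0.16 (R 4.3.3; filterByExpr, TMM, robust quasi-likelihood test, two-sided, Benjamini-Hochberg over all genes tested, threshold 0.05) with library as a replicate block. Fibroblasts, with 18 and 22 cells, were left out. Sums with the same number come from the same library, which is where the pairing comes from, and their deviations correlated (median 0.23, lowest 0.00365). The G2/M comparisons did not meet the minimum of 20 cells and used a fit with a minimum of 8 (62 sums, 12563 genes), a choice made after the cell numbers were seen, as were both other S/G2 comparisons; MCCs against progenitors II was added after the levels were seen.

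The 9 genes, the gene lists and the tests were chosen with earlier results of these data known. Named besides the 9 are, per list, up to 3 genes with the highest and 3 with the lowest fold change at matched class, and for likeness up to 5 genes per member with a mean of at least 10 CPM. Intervals are exact Poisson (CPM) or Clopper-Pearson (shares) at 95% and cover counting error only. Shares of cells used cells thinned to 5000 UMIs, leaving out 479 and 128 shallower cells. Alternatives were DESeq2 1.42.0, its size factors, no filter, no block, thinned cells, other sets of populations and leaving out a replicate.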

Additional observations from a re-analysis of the deposited data

How the results depend on the processing

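No fold change of the 9 genes in the 13 comparisons turned its direction past the threshold under any alternative that has a test. Of 117 such values, 101 kept their side of the threshold in the fit without the replicate block and 16 lost it. With thinned cells, where not all 117 had a result, 88 kept it, 25 lost it and 2 gained it. With DESeq2's test 103 kept it, 12 lost it and 2 gained it, and with its size factors 113 kept it and 4 lost it. Calls lost are given beside many of the comparisons, but not beside all of them. Myb and Foxm1 in S/G2 mid and S/G2 late deuterosomal cells against S/G2 cycling progenitors kept their side under each alternative. In G2/M, 4 of the 5 lower calls against S and the Foxm1 call in late deuterosomal cells were lost with thinned cells.

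The number of all genes called moved by over 1.5 times in these cases. Without the replicate block it was 1843 of 4991 for early deuterosomal cells against progenitors II (1331 higher and 512 lower), 4541 of 7780 for mid against early, 996 of 3462 for late against mid, 2977 of 6140 for MCCs against late, 4003 of 7467 for MCCs against progenitors II, 2822 of 6135 for cycling against non-cycling progenitors, and 432 of 1292 for S/G2 against S cycling progenitors. With thinned cells it was 1833 for late against mid deuterosomal cells, 5933 of 8974 for S/G2 mid and 4598 of 7757 for S/G2 late deuterosomal cells against S/G2 cycling progenitors, 471 for S/G2 against S cycling progenitors, 869 of 2033 for G2/M late deuterosomal cells and 302 of 783 for G2/M against S cycling progenitors.

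With thinned cells the mean Myb share was 93.7% in early deuterosomal cells, 74.5% in early MCCs and 88.8% in MCCs, and the Mybl2 share of Mybl2 and Foxm1 was 34.9% in mid deuterosomal cells, 87.8% in early MCCs and 77.0% in MCCs. Leaving unannotated cells out of the fit moved the median of all genes by −0.16 for mid and −0.11 for late deuterosomal cells against cycling progenitors and by 0.14 for G2/M late deuterosomal cells; DESeq2 size factors moved it by 0.10 for late against mid deuterosomal cells. The cause of these changes was not tested. Each replicate alone gives a value with no test; without replicate 1, 36 of the 117 fold changes moved by more than the spread between replicates, and without replicate 2, 7 did. Few UMIs limit Foxm1 and Mybl2 in deuterosomal cells, MCCs and non-cycling progenitors outside S/G2, and all 9 genes in G2/M. They also limit Mybl2 inside S/G2, with 79 UMIs in mid deuterosomal cells and 59 in cycling progenitors over both libraries. The S class of cycling progenitors held 92.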
